A study of Homo sapiens with 4 samples.

Results

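The genes described here are 10 enzymes of amino acid and one-carbon synthesis: CTH and CBS (cysteine), ASNS (asparagine), PHGDH, PSAT1 and PSPH (serine), SHMT2 and MTHFD2 (folate one-carbon steps), and ALDH18A1 and PYCR1 (proline). They were chosen by name, with earlier results of the comparison below already known. Each was followed through the probe sets that the platform annotation assigns to its symbol. This gave 8 of the 10 enzymes, with 1 probe set each, among 14884 genes with a named probe set. MTHFD2 and ALDH18A1 had no named probe set, so both count as not measured. All 8 passed the filter on low values and belong to the 12755 genes tested.

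Expression was profiled on 4 Affymetrix arrays of MDA-MB-231Br cells, a brain-seeking derivative of the MDA-MB-231 human breast cancer line, which is the name in the sample titles. There were 2 arrays of cells carrying a control short hairpin RNA (shControl) and 2 of cells carrying a hairpin against YTHDF3 (shYTHDF3). YTHDF3 is a cytoplasmic reader of N6-methyladenosine on RNA. Both groups received lentivirus, underwent puromycin selection and grew in DMEM with serum and antibiotics. The labels do not say how many hairpin sequences were used, or whether each array had a culture of its own, so the spread behind every p-value may be technical. The comparison asks how transcript levels differ when YTHDF3 is targeted. No probe set was named YTHDF3 here, so the knockdown labels have no check from the targeted transcript. Values are log2 expression as deposited, and a difference is shYTHDF3 minus shControl on that scale.

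These enzymes make amino acids that a cell can build for itself. Serine is drawn from a glycolytic intermediate by PHGDH, PSAT1 and PSPH in sequence. SHMT2 then turns serine into glycine in the mitochondrion and passes a carbon unit to folate, which MTHFD2 oxidises for use in purine and thymidylate synthesis. CBS and CTH carry sulfur from homocysteine to cysteine, ASNS amidates aspartate to asparagine, and ALDH18A1 and PYCR1 form proline from glutamate. Several of the genes, ASNS among them, are known targets of ATF4, the transcription factor whose translation rises when amino acids run short or unfolded protein builds up in the endoplasmic reticulum (ER). Standard DMEM supplies serine, glycine, cystine and methionine but neither asparagine nor proline.

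The 2 largest differences among the enzymes were those of CTH and ASNS, both lower in the shYTHDF3 arrays. The 3 serine enzymes, SHMT2 and PYCR1 were lower by 0.28 to 0.47, and CBS was higher by 0.32. Since the enzymes were chosen with this comparison known, their differences are given as a description with a standard error (SE) and no test. Each SE comes from the limma fit, which shares variance across all tested genes. It is therefore not the spread of that gene's own arrays alone.

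**Figure D1:**
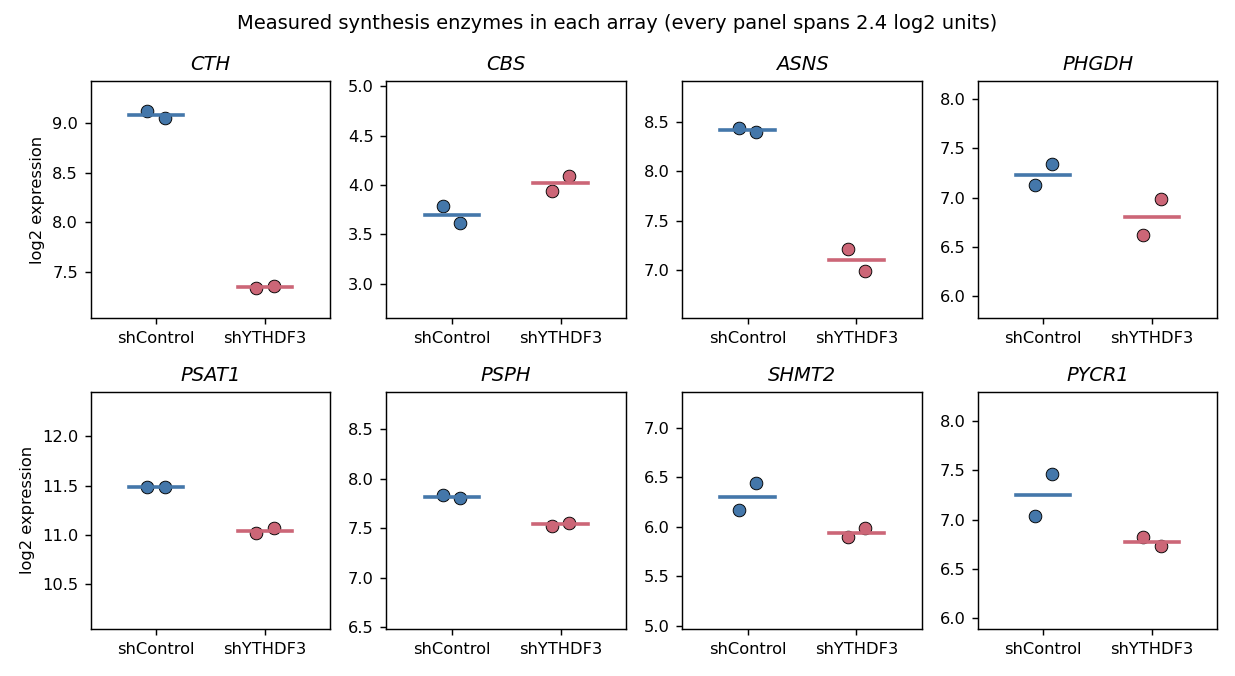
Log2 expression (vertical axis) of the 8 measured enzymes in each array, by group (horizontal axis). Points are single arrays, bars are means of 2 arrays, and every panel spans the same number of log2 units. The control and knockdown points are farthest apart for CTH (9.09 against 7.34) and ASNS (8.42 against 7.10), and CBS is the 1 panel with the knockdown points above.

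CTH encodes cystathionine gamma-lyase, which releases cysteine in the last step of transsulfuration and also forms hydrogen sulfide. Its values were 9.13 and 9.05 in the control arrays and 7.33 and 7.35 in the shYTHDF3 arrays. Both pairs were tight and lay far apart. The difference was -1.74 (SE 0.13), which is 3.35-fold lower, and the 4 knockdown-control array pairs ranged from -1.79 to -1.70. CBS encodes cystathionine beta-synthase, the step before CTH. It stood at 3.79 and 3.61 in the control arrays and 3.94 and 4.09 in the shYTHDF3 arrays. Here both knockdown arrays lay above both controls, by 0.15 at the closest pair, with a difference of 0.32 (SE 0.14). These levels are not far above the filter value of 2.54 and the array medians of 3.20 to 3.22. Weak signals are compressed there, so the size of the CBS difference is uncertain and may be understated. Whether the CBS signal stood above background was not tested.

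ASNS encodes glutamine-dependent asparagine synthetase. Its values were 8.44 and 8.40 in the control arrays and 7.21 and 6.99 in the shYTHDF3 arrays. The groups were well separated, although the knockdown arrays were less alike than the controls. The difference was -1.32 (SE 0.14), or 2.50-fold lower, with single pairs between -1.45 and -1.19. ASNSD1, an asparagine synthetase-related gene, differed by 0.19 (SE 0.13) and did not pass (adjusted p = 0.545 from limma; 0.13 without shControl replicate 2).

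The promoters of CTH and ASNS, the enzymes with the largest differences, are shown as the 250 bases before the annotated start, read 5′ to 3′ on the gene's own strand. They were searched for the C/EBP-ATF response element TGATGNAA, the kind of site through which ATF4 acts, on both strands of a window from 250 bases before to 50 after the start. Capitals mark a match. The sequences are RefSeq's on GRCh38.p14, and the ASNS stretch spans chr7:97872409-97872658 on the minus strand, that of CTH chr1:70411018-70411267 on the plus strand.
ASNS: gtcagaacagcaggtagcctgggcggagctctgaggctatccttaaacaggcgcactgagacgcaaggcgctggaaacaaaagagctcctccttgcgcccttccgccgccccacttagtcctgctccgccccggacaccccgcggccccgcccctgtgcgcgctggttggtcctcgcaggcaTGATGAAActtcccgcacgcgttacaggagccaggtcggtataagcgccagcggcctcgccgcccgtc
CTH: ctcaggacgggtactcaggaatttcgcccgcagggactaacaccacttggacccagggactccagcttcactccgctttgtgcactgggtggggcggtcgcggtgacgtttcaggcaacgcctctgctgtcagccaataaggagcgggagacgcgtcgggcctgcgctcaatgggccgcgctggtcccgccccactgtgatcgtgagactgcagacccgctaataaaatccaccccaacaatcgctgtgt

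The ASNS promoter holds 1 match, TGATGAAA, which begins 68 bases before the start. No match was found in the CTH window. The table held promoters of 7 of the 10 enzymes in 10 windows, with 3 alternative windows for CBS and 2 for ASNS. PSPH, SHMT2 and PYCR1 had no entry. The ASNS window shown was the 1 of these 10 with a match, and CBS, PHGDH, PSAT1, MTHFD2 and ALDH18A1 had none. Of all 35116 promoter windows of that length, 3.62% held the motif. Among the tested genes with a promoter entry the share was 2.97% (285 of 9605), and among those called lower it was 4.69% (3 of 64: ASNS, the glycyl-tRNA synthetase gene GARS1 and KRTAP4-8, the last a keratin-associated protein gene). GARS1 and KRTAP4-8 are named after their values were seen. A match describes these letters in this window and does not show binding, and sites outside the window were not searched.

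The 3 enzymes of serine synthesis had lower means in the shYTHDF3 arrays, and none of the 3 passed the threshold of the fit over all genes. PHGDH, the first and committed step, stood at 7.12 and 7.34 in the control arrays and 6.62 and 6.99 in the shYTHDF3 arrays. PSAT1, the aminotransferase of the middle step, stood at 11.48 in both controls, with 11.02 and 11.07 in the shYTHDF3 arrays. PSPH, the phosphatase that yields serine, had 7.84 and 7.80 against 7.53 and 7.56. In each case both knockdown arrays were below both controls, but for PHGDH the closest arrays were 0.13 apart. The differences were -0.42 (SE 0.17) for PHGDH, -0.44 (SE 0.13) for PSAT1 and -0.28 (SE 0.13) for PSPH. These are 1.34-fold, 1.36-fold and 1.21-fold lower.

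SHMT2, the mitochondrial serine hydroxymethyltransferase, stood at 6.17 and 6.44 in the control arrays and 5.89 and 5.99 in the shYTHDF3 arrays. The knockdown arrays were lower, with 0.18 between the closest arrays and 0.27 between the controls themselves. Its difference was -0.36 (SE 0.15), or 1.29-fold lower. SHMT1, the cytosolic enzyme of the same reaction, moved the other way, from 5.36 and 5.50 to 6.01 and 5.89. That is a difference of 0.52 (SE 0.13), which did not pass over all genes (adjusted p = 0.148 from limma). Whether SHMT1 and SHMT2 differ from each other in their response was not tested.

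PYCR1, the mitochondrial pyrroline-5-carboxylate reductase that completes proline, stood at 7.03 and 7.46 in the control arrays and 6.82 and 6.73 in the shYTHDF3 arrays. The controls were 0.43 apart, the widest control spread of the 8 enzymes, and the lower control was 0.21 above the nearer knockdown array. The difference was -0.47 (SE 0.17), or 1.39-fold lower.

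Across the 8 enzymes the median difference was -0.43, beside a median of 0.0040 over all 12755 tested genes. Both knockdown arrays lay below both controls for 7 enzymes and above for 1. Over all tested genes these shares were 22.8% below and 22.6% above. The limma fit across all genes put CTH and ASNS past an adjusted p of 0.05, both lower, and the other 6 did not pass. Over all tested genes 0.666% were called lower and 0.0862% higher. Nothing is read from these counts, because the comparison was known when the enzymes were chosen. CTH had the difference ranked 19 from the lowest among the tested genes and ASNS that ranked 39. PYCR1, PSAT1, PHGDH and SHMT2 ranked between 601 and 1040, and PSPH ranked 1688. Over the 4 knockdown-control array pairs the median of the 8 ran from -0.59 to -0.29. The 7 of 8 negative in each of the 4 pairs follow from the lack of overlap given above and add nothing to it. With shControl replicate 1 left out limma called 0 of the 8 (5 at an unadjusted p under 0.05) and 0 of all 12756 genes then tested. With shControl replicate 2 left out it called 0 of the 8 (3 at an unadjusted p under 0.05) and 0 of all 12736, so these fits lost the calls of every gene. The differences themselves were -1.71 and -1.78 for CTH and -1.30 and -1.34 for ASNS in these fits. Without shYTHDF3 replicate 2 the call of ASNS was lost and that of CTH was not.

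**Figure D2:**
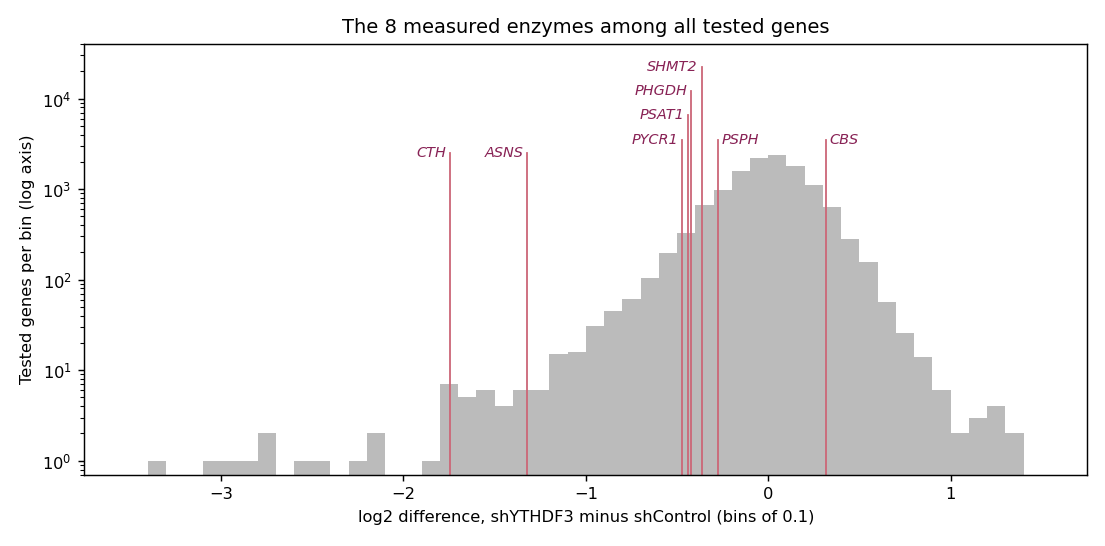
Distribution of the log2 difference (horizontal axis, bins of 0.1) over the 12755 tested genes, as genes per bin on a log axis, with a vertical line at each measured enzyme. CTH (-1.74) and ASNS (-1.32) lie in the thin left tail, 5 enzymes lie between -0.47 and -0.28 on the left shoulder, and CBS (0.32) lies on the right.

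**Figure D3:**
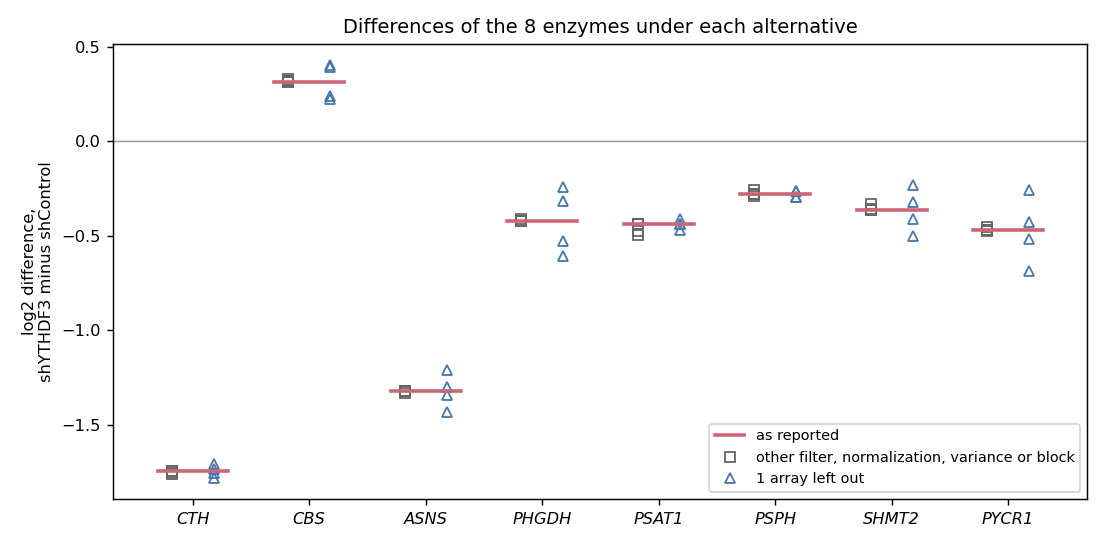
Log2 difference (vertical axis) of each measured enzyme as reported (bar), under other filters, normalizations, variance models or the replicate block (squares), and with 1 array left out (triangles). PYCR1 has the widest range (-0.68 to -0.26) and the values of CTH stay between -1.78 and -1.71.

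Of the alternatives, the 3 other normalizations and leaving out each of the 4 arrays can change the difference of a gene with 1 probe set. The normalizations moved the 8 differences by at most 0.01 (ASNS) to 0.06 (PSAT1). Leaving out 1 array cannot turn the sign where the groups do not overlap, but it moved the sizes. In those fits PHGDH ran from -0.60 to -0.24, SHMT2 from -0.50 to -0.23, PYCR1 from -0.68 to -0.26 and CBS from 0.23 to 0.41. PSAT1 and PSPH moved little, from -0.47 to -0.41 and from -0.30 to -0.26. The smallest sizes came without shYTHDF3 replicate 1 for PHGDH (-0.24) and without shControl replicate 2 for SHMT2 (-0.23) and PYCR1 (-0.26), each smaller than reported by more than 1.5 times.

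The rest of the pathways was taken from 8 lists of 164 other genes, of which 90 had a named probe set and 85 were tested. The lists were drawn up with earlier results of these data known. Called shares over all tested genes were 0.666% lower and 0.0862% higher. Of the 85, limma called 4 lower and 0 higher, and all 4 belong to the list of amino acid response regulators and targets. In the 66 tested genes outside that list 0 were called, with 2 lower and 6 higher by the unadjusted p (under 0.05). Over all tested genes 8.48% were lower and 6.24% higher by that unadjusted threshold, which is the background for each such count here. The median difference was 0.04, and both knockdown arrays lay below both controls for 8 and above for 18, where all tested genes gave 22.8% and 22.6%. The 8 and 18 were not tested against these shares. These 66 are the neighbours of the 8 enzymes in the same routes, with their carriers.

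**Figure D4:**
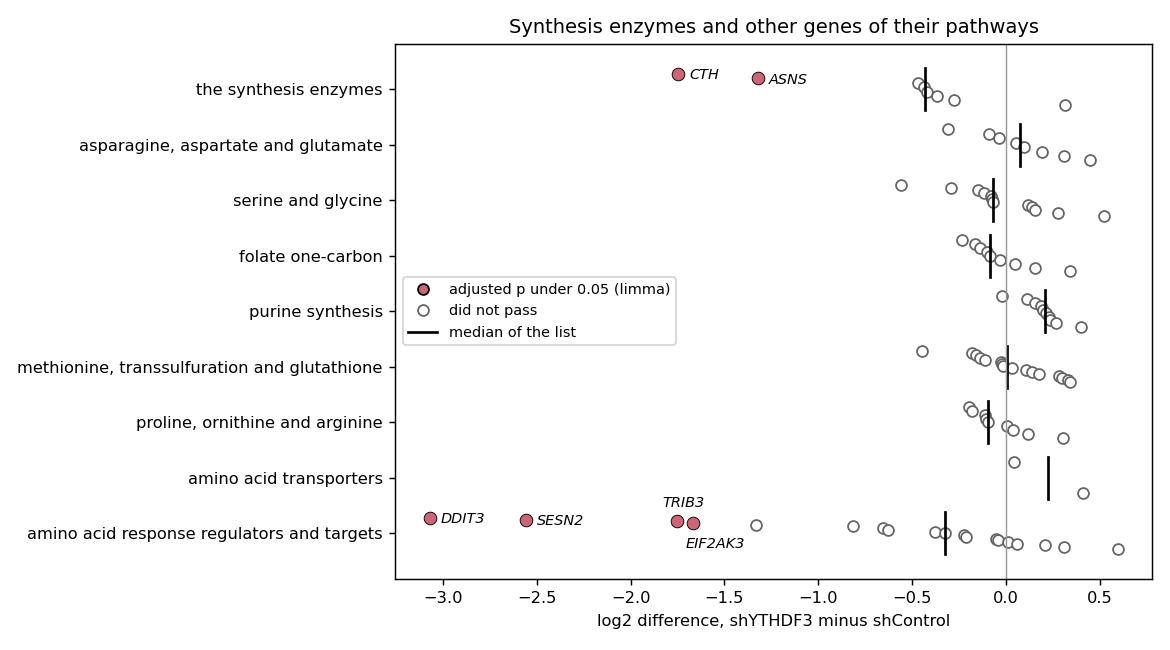
Log2 difference (horizontal axis) of each tested gene, by list (vertical axis), with the median of each list as a black bar. Filled points passed an adjusted p of 0.05 in the limma fit over all genes. The filled points are CTH and ASNS among the enzymes and DDIT3, SESN2, TRIB3 and EIF2AK3 among the response genes; purine synthesis is the list with the median farthest to the right among those with more than 2 tested genes (0.21).

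Of the asparagine, aspartate and glutamate list 8 of 15 genes were tested and 0 called, with 0 at an unadjusted p under 0.05. The median was 0.07. The asparaginase gene ASPG had a difference of 0.45, GLUL, glutamine synthetase, 0.31, and ASS1, argininosuccinate synthetase, -0.31, with SEs of 0.20, 0.16 and 0.17 and no call (adjusted p of 0.356, 0.422 and 0.441 from limma). Without shYTHDF3 replicate 2 the 3 were 0.15, 0.16 and -0.11. Of the serine and glycine list 12 of 16 were tested and 0 called, and the median was -0.07. At an unadjusted p under 0.05 there was 1 in each direction. These were SRR, serine racemase (-0.56, adjusted p = 0.145 from limma), and SHMT1. GCAT, glycine C-acetyltransferase, had 0.28 (SE 0.15, adjusted p = 0.438 from limma), and 0.14 without shControl replicate 2.

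Folate one-carbon genes other than SHMT2 were tested for 9 of 20, with 0 called and a median of -0.08. The single gene at an unadjusted p under 0.05 was TYMS, thymidylate synthase, at 0.34 (adjusted p = 0.333 from limma), and at 0.22 without shYTHDF3 replicate 1. MTHFD2L, the paralogue of the unmeasured MTHFD2, had overlapping groups, with 6.01 and 5.60 in the control and 5.28 and 5.85 in the shYTHDF3 arrays. MTHFD1L, which makes formate in the mitochondrion, differed by -0.16 (SE 0.13), or -0.10 without shControl replicate 2, and QDPR by -0.14. In purine synthesis, which consumes the folate carbon units, 10 of 13 were tested and 0 called, with 1 higher at an unadjusted p under 0.05. The median was 0.21 and 9 of the 10 differences were positive. Over all tested genes 6472 of 12755 were positive, and the 9 of 10 were not tested against this share. The ribose phosphate synthetases PRPS1 and PRPS2 stood at 0.40 and 0.27, and GMPS, which forms GMP, at 0.23.

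Methionine, transsulfuration and glutathione genes other than CBS and CTH were tested for 16 of 26, with 0 called and a median difference of 0.0073. By the unadjusted p (under 0.05), 1 was lower and 1 higher. MTRR, which reactivates methionine synthase, had -0.45, and the sulfur transferases MPST and TST had 0.34 and 0.30. None of these passed over all genes (adjusted p of 0.223, 0.277 and 0.346 from limma). Proline, ornithine and arginine genes were tested for 9 of 17, with 0 called, 1 higher at an unadjusted p under 0.05 and a median of -0.10. ODC1, which starts polyamine synthesis from ornithine, had 0.30, SRM, spermidine synthase, -0.20 and PRODH2 -0.18. SRM was at -0.10 without shControl replicate 2 and at -0.10 without shYTHDF3 replicate 1, and PRODH2 had overlapping groups. Only 2 of 31 amino acid transporters had a named probe set. SFXN1, a mitochondrial serine carrier, had 0.41 (adjusted p = 0.292 from limma; 0.27 without shControl replicate 2) and SLC25A15, an ornithine carrier, 0.04, so import of the amino acids in question was hardly covered.

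Of the amino acid response regulators and targets 19 of 26 were tested, 4 fell, 0 rose and 15 did not pass, and the list median was -0.33. Among all tested genes 0.666% were called lower and 0.0862% higher. This list was drawn up with earlier results of these data known. By the unadjusted p (under 0.05), 9 of the 19 were lower and 1 higher, beside 8.48% and 6.24% of all tested genes. The 1 higher was ATF5, at 0.60 (SE 0.19), which did not pass over all genes (adjusted p = 0.207 from limma). Of the 19 differences 14 were negative and 5 positive. The 5 include EIF2AK4, at 0.06 with overlapping groups. They also include GCN1, at 0.31 (SE 0.14), which did not pass (adjusted p = 0.371 from limma). The falls were DDIT3, the transcription factor CHOP (-3.07), SESN2, an inhibitor of mTORC1 (-2.56), TRIB3, a pseudokinase that restrains ATF4 (-1.75), and EIF2AK3, the ER stress kinase PERK (-1.67). Their adjusted p-values from limma were 0.000624, 0.000463, 0.0102 and 0.00259. The fits without shControl replicate 1 or shControl replicate 2, which called 0 genes in all, lost these 4 as well, with differences of -3.18 and -2.95 for DDIT3, -2.55 and -2.56 for SESN2, -1.94 and -1.57 for TRIB3 and -1.64 and -1.70 for EIF2AK3. TRIB3 was also not called without shYTHDF3 replicate 1. DDIT3 stood at 6.45 and 6.68 in the control arrays and 3.28 and 3.70 in the shYTHDF3 arrays. The latter are not far above the filter value of 2.54, where weak signals are compressed. VLDLR (-0.81), ATF3 (-1.33) and JDP2 (-0.65) did not pass, at adjusted p-values of 0.0669, 0.0932 and 0.0983 from limma. ATF3 was at 4.51 and 4.56 in the control arrays, but its knockdown arrays were far apart, at 3.67 and 2.74, and its difference was -0.87 without shYTHDF3 replicate 2. It passed without shYTHDF3 replicate 1.

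The transcript of ATF4 did not move with ASNS and CTH. It stood at 8.73 and 8.83 in the control arrays and 8.75 and 8.83 in the shYTHDF3 arrays, so the groups overlapped. The difference was 0.01, with a 95% interval of -0.29 to 0.31. ATF4 protein, which is set largely by translation, was not measured.

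By the smallest root mean square distance between the 4 values of each gene, centred on its own mean, the tested genes most like ASNS were MIR21, CDK2AP2, STARD4, ZNF449 and MXD1. The distances ran from 0.04 for the MIR21 locus, at 7.75 in both controls and 6.62 and 6.35 in the shYTHDF3 arrays, to 0.09 for MXD1. For CTH, taken as a second reference after its values were seen, the nearest were EIF2AK3, STOX2, MANF, ATF7IP2 and SEL1L, at 0.04 to 0.11. Over 4 arrays this measure mostly sets genes of equal difference side by side, so it is a description only.

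Arrays of a group correlated at 0.992 over the tested genes and arrays of different groups at 0.986 to 0.987. Their small number limits the precision. The 5 measured markers of this mesenchymal-like line (VIM, CD44, AXL, MSN and ANXA1) had group means of 8.12 to 12.4. The 11 measured luminal and epithelial markers were not uniformly low. The hormone receptor genes ESR1 and PGR stood at 2.66 to 2.91, close to the filter value. GATA3, KRT8, FOXA1, TFF1 and CLDN4 had group means from 3.29 (TFF1, shControl) to 5.17 (FOXA1, shYTHDF3). Higher than these, KRT18 had shControl and shYTHDF3 means of 8.45 and 8.96, and KRT19 6.77 and 6.37. EPCAM stood at 6.70 in both groups and CLDN3 at 5.35 and 5.48. KRT18 had 2 probe sets, of which that with the higher mean is given. Markers of other cells gave 0 calls among 11 luminal, 3 leukocyte, endothelial or stromal and 5 neural or glial genes tested, with 1, 1 and 1 at an unadjusted p under 0.05. The last was SYT1 (-0.66). Leukocyte, endothelial and stromal markers had levels of 2.50 to 3.08, and 2 further ones, LYZ and DCN, were below the filter. Neural and glial markers had levels of 2.46 to 5.82. The highest were MBP, with shControl and shYTHDF3 means of 5.78 and 5.82, and SYT1, with 5.75 and 5.09. A lower share of expressing cells and less RNA per cell cannot be told apart in bulk RNA.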

How the data were processed

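Total RNA of 4 samples was hybridised as biotin-labelled cRNA. The deposited table holds log2 expression, 1 column per array. The submitters' processing notes name RMA (settings not given in the sources used here), a background correction, between-array normalization and probe summary that removes array-wide shifts and compresses weak signals. Of 53617 probe sets 16098 had 1 gene symbol, 0 had several and 37519 were unnamed here. The probe set of highest mean stood for a gene, and genes at or above the 30th percentile of all row means (2.54) were tested. Groups come from the sample titles. Limma 3.58.1 in R 4.3.3 (lmFit, eBayes, 2-sided, no covariates) compared them, with Benjamini-Hochberg adjustment over 12755 genes and a threshold of 0.05. There were 2 residual and 5.30 prior degrees of freedom, and 2 against 2 arrays cannot give a permutation p below 0.333. The fit was run on simulated data drawn from its own variance model with independent errors, which cannot check for a batch or for technical replicates. The enzymes, lists and tests were chosen with earlier results of these data known. The genes named are the 10 enzymes; list genes past the threshold, plus up to 3 of smallest p per list; ATF4 and paralogues of the enzymes; and the 5 nearest to ASNS. Others are named as seen.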

Additional observations from a re-analysis of the deposited data

How the results depend on the processing

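Of 493 values of single named genes under alternatives, 461 kept their direction and their side of the threshold, 17 lost and 7 gained a call, and 8 changed sign. The sign changes were those of ATF4, SLC25A15, MTHFD2L and PRODH2: ATF4 gave -0.0059 with quantile normalization, -0.015 with cyclic loess and ran from -0.042 to 0.059 with 1 array left out. With 1 array left out SLC25A15 ran from -0.023 to 0.11, MTHFD2L from -0.52 to 0.052 and PRODH2 from -0.38 to 0.020. Limma called 96 genes in all, against 167 with a filter at the 50th percentile, where fewer genes are tested, 375 with an intensity trend in the variance, 250 at an adjusted p under 0.10, and 0 to 36 with 1 array left out (1376 and 1387 at an unadjusted p under 0.05 for the 2 counts of 0). The other pathway genes called numbered 9 with the trend, 7 at 0.10 and 0 to 4 with 1 array left out (14 and 13 at an unadjusted p under 0.05 for the 2 counts of 0). The trend added PSAT1 to the 2 enzymes called. With 1 array left out, 0 to 2 enzymes were called and their median ran from -0.51 to -0.31. With a lone array in a group, that array is assumed to vary like the other group. The cause of the other changes was not tested.

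With the replicate block limma called 11 genes in all, 0 of the 8 enzymes (6 at an unadjusted p under 0.05) and 3 of the other pathway genes, without EIF2AK3. Nothing in the labels ties the numbers to a shared day or batch. The deviations of same-numbered arrays correlated at 0.043 over the tested genes. With 1 pair of arrays per group this value cannot decide whether same-numbered arrays shared a batch, which was not tested. The block leaves 1 residual degree of freedom. Signal near the filter limits CBS, and also DDIT3 and ATF3 in the shYTHDF3 arrays.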
